A study of Mus musculus with 11 samples.

Results

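The 44 genes described here are the protein-coding genes whose symbol is Col, a number, the letter a and a number, that is, the genes for the alpha chains of the collagens. They were taken from 34570 genes listed in at least 1 of 2 RNA-seq tables, 1 for mouse embryonic stem cells (mESCs) and 1 for mouse embryonic fibroblasts (MEFs), and all 44 were listed in both. By type, 11 are fibrillar, 6 are basement membrane (type IV) chains, 9 are FACITs, 2 are multiplexins and 16 are other collagens. The study compared cells without ATXN7L3, the adaptor protein that the histone H2B deubiquitinase module of the SAGA coactivator needs for its activity, with wild-type (WT) cells. There were 5 mESC libraries, of which 2 were WT (Atxn7l3+/+) and 3 Atxn7l3-/-. The 6 MEF libraries were split equally, and all were of strain DBA/2 x C57BL/6 and without any treatment that distinguished the genotypes. The study's methods state that 1 further WT mESC dataset was set aside because it did not group with its replicates. The null allele came from a targeting construct and was carried by the whole embryo, and the study calls the mutant fibroblasts MEF-like cells. Both mESC genotypes were grown in 15% foetal calf serum with LIF, 1 µM PD0325901 and 3 µM CH99021, first on feeder cells and then without them. Both MEF genotypes came from E10.5 embryos and were grown in DMEM with 10% foetal calf serum. The labels do not say which libraries came from separate embryos, and the p-values measure the spread between these libraries.

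A collagen molecule is made of alpha chains wound into a triple helix, with glycine at regular positions along it. Fibrillar collagens (types I, II, III, V, XI, XXIV and XXVII) build the banded fibrils of skin, bone and cartilage, type IV collagen builds the sheet of the basement membrane, and FACITs are interrupted collagens that sit on the surface of fibrils. Multiplexins carry chains of sugars and lie beside basement membranes, where their last domain can be released as a fragment, endostatin in the case of type XVIII. Fibroblasts are the main producers of types I, III, V and VI, chondrocytes of types II, IX, X and XI, and the first collagen of the early embryo is type IV.

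Libraries held between 34515342 and 49602605 counts in genes, of which 3 counts, where the total of each library is set to 1000000 (CPM), are 0.0605 to 0.0869 CPM. Levels are given as CPM, further scaled over all 11 libraries by the TMM method, per kilobase of the longest coding transcript of the gene (CPM per kb), and differences between groups as log2 fold changes with their standard error (SE). The targeted gene Atxn7l3 was at 197 and 203 CPM in WT mESCs and at 3.34, 1.61 and 0.833 CPM in Atxn7l3-/- mESCs. In MEFs it was at 86.6, 117 and 104 CPM in WT and at 56.5, 55.5 and 73.3 CPM in the 3 others, whose mean was 60.3% of that in WT (log2 fold change −0.74, SE 0.21, adjusted p = 0.0715, edgeR). A count per gene does not show on which exons the remaining MEF reads lie, so MEF directions below are those of libraries by their label. Of the pluripotency markers, Pou5f1 was at 845 and 982 CPM in WT mESCs, at 1174, 806 and 1054 CPM in Atxn7l3-/- mESCs and was not analysed here in MEFs. Among the 10 fibroblast markers the summed level was 968 to 2824 CPM in WT MEFs, 2322 to 3819.7 CPM in MEFs labelled Atxn7l3-/- and at most 26.3 CPM in any mESC library. In MEFs labelled Atxn7l3-/-, Dcn and S100a4 were the largest terms of the sum, while the median log2 fold change of the 10 markers in MEFs was −0.73. WT replicate 2 stood apart among the WT MEFs by its collagen total, given below, and WT replicate 3 was the only MEF library with Xist at more than 1 CPM (336 CPM).

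Many of the genes hold an exon of a fixed length, a feature that their choice by name did not use. Across the longest coding transcript of each (GENCODE M21 annotation, GRCm38), 469 of 2000 coding exons of the 44 genes were exactly 54 bases long, which is a whole number of Gly-X-Y repeats. This is 23.45% of their coding exons, against 0.449% of those of 18946 other protein-coding genes. The exon of 54 bases marked the fibrillar genes most, with 305 of 647 exons (47.1%), followed by the FACITs with 25.3%, while type IV genes had 4.05% and multiplexin genes 4.94%, and Col8a1, Col8a2, Col10a1 and Col26a1 had none. Coding exons numbered a median of 47 in collagen genes and 7 in the others.

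Several chains are encoded in pairs of neighbouring genes. Col4a1 (chr8:11198423-11312826, minus strand) and Col4a2 (chr8:11312805-11449287, plus strand), the genes for the 2 chains of the common type IV molecule, start head to head and overlap by 22 bases. Col4a3 and Col4a4 start 71 bases apart and Col4a5 and Col4a6 start 1308 bases apart, again on opposite strands. RefSeq promoter windows (build GRCm38.p6, from 250 bases before to 50 after a start) matched 35 of the 44 genes by symbol, with 38 windows. Col1a1, Col2a1, Col5a2, Col4a3, Col9a3, Col12a1, Col14a1, Col22a1 and Col26a1 had no entry. The Col4a1 window is shown because it overlaps that of its neighbour. Its capitals mark the 78 bases (chr8:11312777-11312854) that it shares with the window of Col4a2.

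Col4a1 (chr8:11312777-11313076, minus strand): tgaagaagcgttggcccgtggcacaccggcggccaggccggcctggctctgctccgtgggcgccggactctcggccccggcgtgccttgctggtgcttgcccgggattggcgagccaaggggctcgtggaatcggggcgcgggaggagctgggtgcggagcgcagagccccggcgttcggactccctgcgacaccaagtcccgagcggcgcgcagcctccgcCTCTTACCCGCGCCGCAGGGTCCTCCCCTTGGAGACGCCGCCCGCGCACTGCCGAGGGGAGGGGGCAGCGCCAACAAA

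Windows of 3 more genes are shown for their contrast in the MEFs: Col3a1, the most abundant collagen of the MEFs labelled Atxn7l3-/-, and Col10a1 and Col18a1, which fell there. Col18a1, the most abundant collagen of the mESCs, has a long and a short form from different starts, which a count per gene does not separate. Capitals mark every match, on either strand, of the TATA box TATAAA, the GC box GGGCGG, the CCAAT box CCAAT and the SOX motif AACAAT. The last pair share the letters CAAT but differ in the letter before them, so that no position counts as both.

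Col3a1 (chr1:45311288-45311587, plus strand): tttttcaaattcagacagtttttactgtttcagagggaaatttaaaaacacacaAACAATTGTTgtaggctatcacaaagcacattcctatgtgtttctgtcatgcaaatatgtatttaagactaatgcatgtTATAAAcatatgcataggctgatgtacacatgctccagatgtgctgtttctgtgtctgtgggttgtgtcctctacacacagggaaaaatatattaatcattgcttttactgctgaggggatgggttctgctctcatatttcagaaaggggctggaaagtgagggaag

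Col10a1 (chr10:34389731-34390030, plus strand): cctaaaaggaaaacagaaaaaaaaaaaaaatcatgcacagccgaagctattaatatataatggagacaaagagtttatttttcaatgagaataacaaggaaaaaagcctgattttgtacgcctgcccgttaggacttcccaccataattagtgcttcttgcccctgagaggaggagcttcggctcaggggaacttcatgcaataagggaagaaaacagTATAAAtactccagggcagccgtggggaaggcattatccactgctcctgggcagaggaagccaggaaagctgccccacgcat

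Col18a1, first start (chr10:77166481-77166780, minus strand): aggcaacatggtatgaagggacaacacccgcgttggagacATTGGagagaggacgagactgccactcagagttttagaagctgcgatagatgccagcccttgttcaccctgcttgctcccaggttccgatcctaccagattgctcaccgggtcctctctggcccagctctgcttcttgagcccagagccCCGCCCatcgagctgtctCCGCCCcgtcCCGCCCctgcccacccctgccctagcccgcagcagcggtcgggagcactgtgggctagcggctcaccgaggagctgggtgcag

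Col18a1, second start (chr10:77113656-77113955, minus strand): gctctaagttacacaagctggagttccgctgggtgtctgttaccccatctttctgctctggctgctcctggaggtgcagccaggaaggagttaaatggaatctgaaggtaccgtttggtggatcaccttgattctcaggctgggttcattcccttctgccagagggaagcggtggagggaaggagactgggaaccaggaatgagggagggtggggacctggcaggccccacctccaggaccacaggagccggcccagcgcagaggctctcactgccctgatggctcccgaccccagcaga

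Among the 38 collagen windows, 5 held the TATA box (13.2%, against 13.6% of 32851 windows of the same length), 23 the GC box (60.5%, against 35.7%), 13 the CCAAT box (34.2%, against 37.4%) and 1, that of Col3a1, the SOX motif (2.63%, against 10.7%). Their median GC content was 59.8%, against 52.7% over all windows. Of the windows shown, Col3a1 and Col10a1 held a TATA box and no GC box, the first start of Col18a1 held 3 GC boxes and 1 CCAAT box, and its second start held none of the motifs. These matches describe the letters only.

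WT MEFs and WT mESCs differed in the amount and in the kind of collagen they expressed. Collagen genes together took 22023, 61363 and 33195 CPM in the WT MEFs, in replicate order, and 747 and 859.9 CPM in the WT mESCs. In WT MEFs, Col1a2 and Col1a1, the chains of type I, led with 1479 ± 1323 and 1355 ± 962 CPM per kb (SD, n = 3), followed by Col3a1 with 805 ± 943, Col5a2 with 474 ± 35.4 and Col4a1 with 361 ± 151 CPM per kb. The spread of Col1a2, Col1a1 and Col3a1 over the 3 libraries was wider than the distance between them, so their order is not resolved, whereas Col5a2 varied little. WT mESCs had a different order: Col18a1 was at 57.4 ± 10.4 CPM per kb (SD, n = 2), Col4a1 at 29.0 ± 4.86, Col4a2 at 14.9 ± 5.51 and Col1a1 at 4.83 ± 4.53 CPM per kb. Col18a1, Col4a1 and Col4a2 made up 75.03% of the summed collagen level there, and their ranges did not overlap one another.

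Of 43 collagen genes tested in a fit of all 11 libraries, 31 were higher in WT MEFs than in WT mESCs and 2 were lower (edgeR quasi-likelihood test, adjusted p at most 0.05), against 26.8% and 27.1% of all 19326 genes tested. The higher genes were 10 of 11 fibrillar genes, all 6 type IV genes, 4 of 8 FACITs tested, Col15a1 and 10 of 16 other collagens. Their largest log2 fold changes were those of Col8a2 (10.79) and Col10a1 (10.67), which form hexagonal networks, and of Col3a1 (10.19). Several of the higher genes had few counts in WT mESCs, so the size of their change is uncertain. Col8a2 had 6 and 8 counts there and Col10a1 had 2 and 10. Among the type IV genes, Col4a3 had 4 and 2, Col4a4 had 6 and 1, and Col4a6 had 4 and 6. The lower genes were Col13a1 (−3.95, adjusted p = 0.00264, edgeR) and Col17a1 (−2.88, adjusted p = 0.00112), both transmembrane collagens of epithelial and other adherent cells. Col18a1, with 50.0 and 64.8 CPM per kb in WT mESCs and 82.4, 28.4 and 75.3 in WT MEFs, had a log2 fold change of 0.11 (SE 0.65, adjusted p = 0.895, edgeR).

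**Figure D1:**
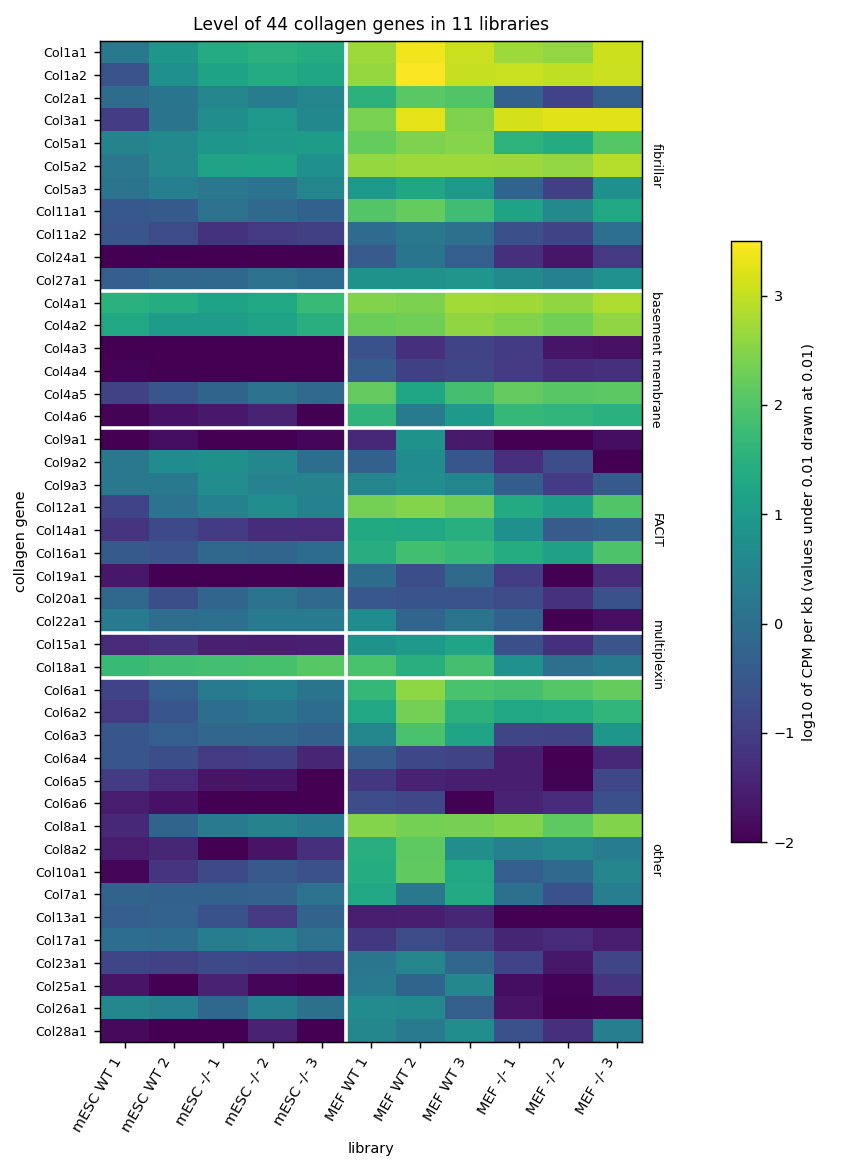
Level of each of the 44 collagen genes (rows, grouped by type between white lines) in each of the 11 libraries (columns), as log10 of CPM per kb by colour, with values under 0.01 drawn at 0.01. Types I and III and Col5a2, Col4a1, Col4a2 and Col8a1 are bright in all 6 MEF libraries, Col18a1 is the brightest row in the 5 mESC libraries, and Col2a1, Col15a1, Col25a1 and Col26a1 are at 0.520 CPM per kb or less in the 3 MEF libraries labelled Atxn7l3-/-.

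**Figure D2:**
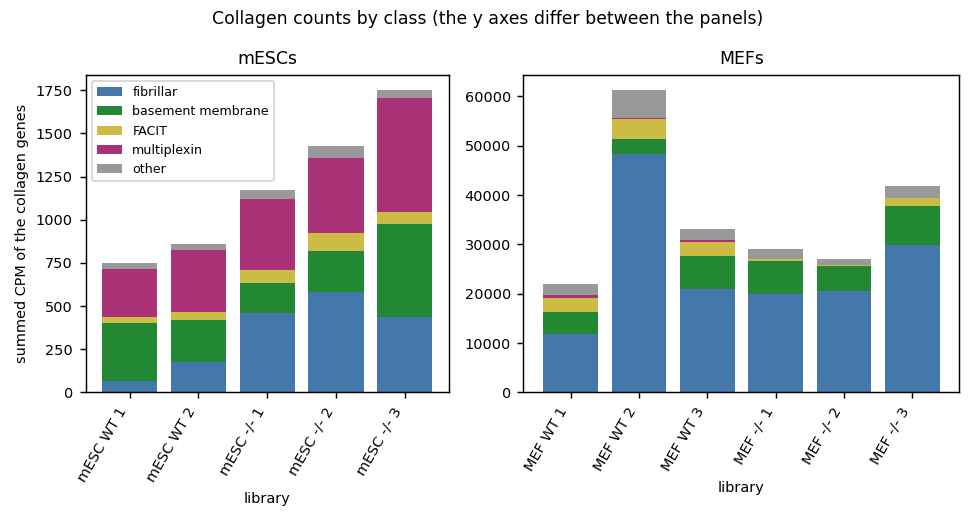
Summed CPM of the collagen genes in each library, stacked by type, with separate y axes for mESCs (left) and MEFs (right). The MEF total is highest in WT replicate 2 (61363 CPM) and the 3 libraries labelled Atxn7l3-/- (28981, 27065 and 41916 CPM) lie between the lowest and the highest WT library, while the mESC total is 747 and 859.9 CPM in WT and 1172, 1427 and 1753 CPM in Atxn7l3-/- cells.

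In MEFs, the question was which collagens change without ATXN7L3. Of 42 collagen genes tested, 11 were lower in the libraries labelled Atxn7l3-/- than in WT and none was higher, against 4.39% lower and 5.01% higher among all 15958 genes tested (edgeR, adjusted p at most 0.05). The 11 were Col2a1, Col11a1 and Col24a1 of the fibrillar genes, the FACIT Col9a3, both multiplexins Col15a1 and Col18a1, and Col6a4, Col10a1, Col23a1, Col25a1 and Col26a1 of the others. No collagen gene was higher at an unadjusted p under 0.05 or by DESeq2, which called 19 lower. Over all 29450 genes, DESeq2 called 3958 in both directions together. Of the 10 collagen genes with the highest WT level none was called, with log2 fold changes from −2.41 (Col12a1) to 1.05 (Col3a1). Among these 10, Col5a1 and Col12a1 did not overlap between the groups and passed with DESeq2 (adjusted p = 0.00811 and 0.0126), and Col11a1, the next in level, was called. The median log2 fold change was −2.06 over the 42 collagen genes and −0.06 over all genes tested. It was −1.36 for the fibrillar genes, 0.35 for type IV, −3.52 for the FACITs, −5.16 for the multiplexins and −3.12 for the others. Levels in the 3 libraries labelled Atxn7l3-/- were all below those in the 3 WT libraries for 23 of the 42, against 19.7% of all genes tested, and all above for none, against 20.1%.

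With the replicate number as a block, which paired the MEF libraries, 14 collagen genes were lower and none higher, against 8.49% and 5.5% of all genes. The block kept 8 of the 11 and added Col5a1, Col7a1, Col9a2, Col14a1, Col19a1 and Col22a1. It did not keep Col11a1 (adjusted p = 0.0545 with the block, edgeR), Col24a1 (adjusted p = 0.0556) and Col23a1 (adjusted p = 0.0671). The number of collagen genes called lower without the block depended on single libraries. It was 2, 5 and 4 without WT replicates 1, 2 and 3. Without WT replicate 2, Col3a1 was called as well, as higher. The number lower was 4 and 3 without replicates 1 and 2 of the libraries labelled Atxn7l3-/-, and 15 without their replicate 3. Calls over all genes, in both directions together, moved as well, from 1501 to 464, 866, 197, 252, 285 and 2038 in the same order. Col2a1 and Col15a1 were called in each of these fits.

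**Figure D3:**
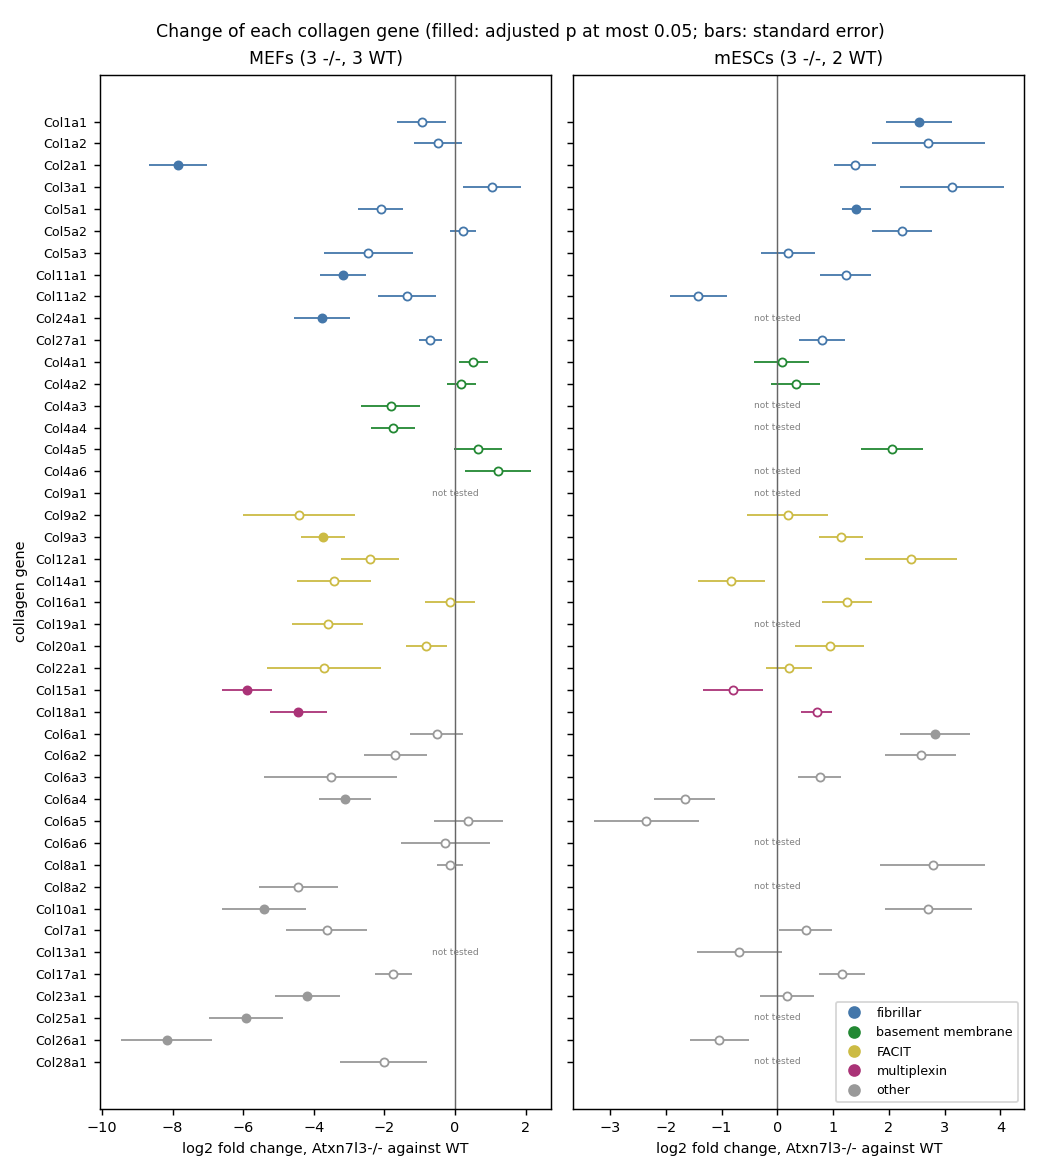
Log2 fold change of each collagen gene, Atxn7l3-/- against WT, in MEFs (left, 3 against 3 libraries) and mESCs (right, 3 against 2), coloured by type, with bars for 1 standard error and filled points for an adjusted p of at most 0.05. In MEFs 35 of 42 points lie below 0 and the 11 filled points are all below 0, while in mESCs 27 of 34 points lie above 0 and the 3 filled points, Col1a1, Col5a1 and Col6a1, are all above 0.

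Type I collagen, a trimer of Col1a1 and Col1a2 chains and the main protein of skin, tendon and bone, did not pass the test in either chain. Col1a1 (chr11:94936224-94953042) was at 504, 2399 and 1161 CPM per kb in WT and at 494, 413 and 1206 in the MEFs labelled Atxn7l3-/- (log2 fold change −0.94, SE 0.70, adjusted p = 0.378, edgeR). Col1a2 (chr6:4504814-4541544) was at 426, 2964 and 1048 CPM per kb in WT and at 1088, 965 and 1159.8 (log2 fold change −0.47, SE 0.68, adjusted p = 0.657, edgeR). Both groups overlapped for both chains. Reads of Col1a1 per read of Col1a2, each per kb, were 1.19, 0.809 and 1.11 in WT and 0.454, 0.428 and 1.04 in the other group.

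Type III collagen, a trimer of Col3a1 chains that runs with type I in skin and vessels, had the highest level of any collagen in the MEFs labelled Atxn7l3-/-. Col3a1 (chr1:45311538-45349706) was at 246, 1894 and 276 CPM per kb in WT and at 1373, 1801 and 1825 in those libraries (log2 fold change 1.05, SE 0.83, adjusted p = 0.407, edgeR). The highest WT value came from replicate 2, which overlapped the other group, while the other WT libraries lay under all 3. Without WT replicate 2 the log2 fold change was 2.68 (adjusted p = 0.0316, edgeR), the only collagen called higher in any alternative. The ratio of Col3a1 to Col1a1, per kb, was 0.487, 0.790 and 0.237 in WT and 2.78, 4.36 and 1.51 in the libraries labelled Atxn7l3-/-, and the groups did not overlap.

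Type V collagen, which starts fibrils and sets their width, had chains that differed in their response. Col5a2 (chr1:45374321-45503282), the neighbour of Col3a1 on the opposite strand, was at 433, 496 and 493 CPM per kb in WT and at 475, 414 and 791 in the MEFs labelled Atxn7l3-/- (log2 fold change 0.23, SE 0.37, adjusted p = 0.681, edgeR). Col5a1 (chr2:27886425-28039514) was at 157, 273 and 315 CPM per kb in WT and at 36.8, 23.9 and 112, with all 3 below WT (log2 fold change −2.10, SE 0.64, adjusted p = 0.0812, edgeR, and adjusted p = 0.0398 with the block). Col5a3 was at 8.46, 18.4 and 8.75 CPM per kb in WT and at 0.581, 0.109 and 5.71 (log2 fold change −2.45, SE 1.26, adjusted p = 0.221, edgeR). The ratio of Col5a2 to Col5a1, per kb, was 2.76, 1.82 and 1.56 in WT and 12.9, 17.3 and 7.09 in the libraries labelled Atxn7l3-/-.

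Of the cartilage and bone fibril chains, Col2a1, Col11a1 and Col24a1 fell. Col11a1 and Col24a1 did not pass with the replicate block (adjusted p = 0.0545 and 0.0556, edgeR). Col2a1 (chr15:97975602-98004695), the chain of type II, the main collagen of cartilage, was at 33.7, 122 and 99.9 CPM per kb in WT and at 0.520, 0.125 and 0.463 in the MEFs labelled Atxn7l3-/- (log2 fold change −7.86, SE 0.82, adjusted p = 0.00827, edgeR). All 3 WT libraries expressed it and without replicate 2 it was still called. Col11a1 (chr3:114030540-114220718), a chain of the type XI fibril core, was at 107, 161 and 64.3 CPM per kb in WT and at 14.6, 3.82 and 18.7 (log2 fold change −3.17, SE 0.66, adjusted p = 0.0377, edgeR). Col24a1 (chr3:145292472-145552011), a minor fibrillar chain of developing bone, was at 0.383, 1.38 and 0.448 CPM per kb in WT and at 0.0557, 0.0215 and 0.0838 (log2 fold change −3.77, SE 0.79, adjusted p = 0.0382, edgeR). Groups did not overlap for any of them. Of the remaining fibrillar genes, Col11a2 and Col27a1 had log2 fold changes of −1.36 and −0.70 and did not pass.

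None of the 6 type IV genes passed the test. Col4a1 was at 290.0, 258 and 535 CPM per kb in WT and at 526, 383 and 659 in the MEFs labelled Atxn7l3-/- (log2 fold change 0.53, SE 0.41, adjusted p = 0.4, edgeR). Col4a2 was at 179.6, 204 and 385 CPM per kb in WT and at 285, 208 and 382 (log2 fold change 0.18, SE 0.41, adjusted p = 0.781, edgeR). The ratio of head-to-head partners varied least in this pair: Col4a1 over Col4a2 was between 1.26 and 1.84 in all 6 MEF libraries, and between 1.33 and 2.33 in the 5 mESC libraries. The ratio of Col4a5 to Col4a6 was 2.84 to 9.69 in MEFs and 10.7 to 118 in mESCs, and that of Col4a3 to Col4a4 was 0.295 to 1.04 in MEFs. Col4a5 and Col4a6, the X-linked chains of epithelial and smooth muscle basement membranes, were lowest in WT replicate 2, at 17.9 and 1.85 CPM per kb, and otherwise at 74.5 to 154 and 9.58 to 47.0 CPM per kb. Col4a3 and Col4a4, the kidney and lung chains, were at 0.248 and 0.402 CPM per kb or less in every library.

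Among the 8 FACITs tested, all had a log2 fold change below 0 and 1 was called. Col9a3 (chr2:180597790-180622189), a chain of type IX, which coats type II fibrils, was at 3.23, 4.94 and 3.27 CPM per kb in WT and at 0.418, 0.0924 and 0.354 in the MEFs labelled Atxn7l3-/- (log2 fold change −3.74, SE 0.64, adjusted p = 0.0229, edgeR). The protein-coding gene Tcfl5 overlaps Col9a3 on the other strand, with 7.31 CPM in WT MEFs and 4.20 CPM in the others, against 11.6 CPM for Col9a3 in WT. The type IX partner Col9a1 was counted almost only in WT replicate 2, with 8, 834 and 4 counts in WT and 0, 0 and 2 in the other group, and was not tested. Col12a1 and Col14a1, which coat type I fibrils, were at 226, 309 and 205 and at 21.7, 20.2 and 27.5 CPM per kb in WT. In the libraries labelled Atxn7l3-/- they were at 23.2, 11.4 and 104 and at 5.72, 0.384 and 0.524 CPM per kb. Neither passed without the block (adjusted p = 0.103 and 0.0807, edgeR), and Col14a1 passed with it (adjusted p = 0.0422). Col9a2, the other type IX chain, was at 0.481, 4.79 and 0.292 CPM per kb in WT and at 0.0545, 0.201 and 0 (adjusted p = 0.115, edgeR, and adjusted p = 0.0293 with the block). Col19a1, Col20a1 and Col22a1 had log2 fold changes of −3.61, −0.81 and −3.71, with groups that did not overlap, and the first and the last of them passed with the block. For Col16a1 the value was −0.15 and the groups overlapped.

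Both multiplexins fell. Col15a1 (chr4:47208161-47313167), which links basement membranes to the fibrils beneath, was at 6.84, 8.93 and 16.6 CPM per kb in WT and at 0.216, 0.0544 and 0.278 in the MEFs labelled Atxn7l3-/- (log2 fold change −5.89, SE 0.71, adjusted p = 0.0112, edgeR). Col18a1 (chr10:77052178-77166548), the source of endostatin, was at 82.4, 28.4 and 75.3 CPM per kb in WT and at 6.09, 1.05 and 1.68 (log2 fold change −4.44, SE 0.80, adjusted p = 0.0264, edgeR). In neither gene did a library of one group reach the other. Slc19a1 overlaps Col18a1 on the other strand, with 17.6 CPM in WT MEFs and 15.6 CPM in the others, against 347 CPM for Col18a1 in WT. The call of Col18a1 was lost with a GC correction, with which 9 collagen genes were called in all, and its log2 fold change was between −5.49 and −3.48 in every alternative (adjusted p at most 0.0754).

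The chains of type VI, which form beaded filaments around cells, were called in 1 of 6 cases. Col6a1 (chr10:76708792-76726168) was at 45.9, 372 and 83.4 CPM per kb in WT and at 73.8, 115 and 159.8 in the MEFs labelled Atxn7l3-/- (log2 fold change −0.52, SE 0.76, adjusted p = 0.661, edgeR). Col6a2, its neighbour, was at 19.7, 219.6 and 33.8 CPM per kb in WT and at 18.5, 24.5 and 41.1 (log2 fold change −1.69, SE 0.90, adjusted p = 0.233, edgeR). Col6a3, the third chain of the classical type VI molecule, was at 3.39, 81.7 and 16.0 CPM per kb in WT and at 0.144, 0.132 and 8.35 (log2 fold change −3.52, SE 1.88, adjusted p = 0.237, edgeR). Replicates 1 and 2 of the libraries labelled Atxn7l3-/- had almost no Col6a3 while keeping Col6a1, with 511 and 871 times as much Col6a1 as Col6a3 per kb, against 4.55 to 13.5 times in WT and 19.1 times in replicate 3. Without that replicate 3, Col6a3 was called lower. The low Col6a4 (chr9:105989454-106096783) was at 0.398, 0.153 and 0.136 CPM per kb in WT and at 0.0288, 0.0104 and 0.0406 (log2 fold change −3.12, SE 0.73, adjusted p = 0.0472, edgeR). Col6a5 and Col6a6 were at 0.218 CPM per kb or less in every MEF library (log2 fold changes 0.38 and −0.27, neither called).

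Of the network-forming collagens, Col10a1 (chr10:34389981-34397085), the collagen of hypertrophic cartilage, was at 25.7, 147 and 19.5 CPM per kb in WT and at 0.449, 0.793 and 3.22 in the MEFs labelled Atxn7l3-/- (log2 fold change −5.41, SE 1.19, adjusted p = 0.0413, edgeR). It lies within Nt5dc1 on the opposite strand, which had 13.7 CPM in WT MEFs against 200.3 CPM for Col10a1, and 34.1 CPM in the other group. Col8a1, of the subendothelial matrix, was at 307, 227 and 240.2 CPM per kb in WT and at 292, 137 and 280.4, whereas its partner chain Col8a2 was at 29.2, 139.6 and 5.12 and at 2.4997, 3.55 and 2.05 (adjusted p = 0.806 and 0.0557, edgeR). Col7a1, of the anchoring fibrils of skin, was at 18.9, 1.61 and 23.1 CPM per kb in WT and at 1.03, 0.238 and 2.26, with WT replicate 2 inside the range of the other group (adjusted p = 0.0867, edgeR, and adjusted p = 0.0156 with the block).

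Col23a1 and Col25a1, which are transmembrane collagens, and Col26a1 fell from low WT levels. Col23a1 did not pass with the replicate block (adjusted p = 0.0671, edgeR). Col23a1 (chr11:51289920-51583918) was at 1.42, 3.21 and 0.643 CPM per kb in WT and at 0.127, 0.0226 and 0.143 in the MEFs labelled Atxn7l3-/- (log2 fold change −4.18, SE 0.91, adjusted p = 0.0409, edgeR). Col25a1 (chr3:130131501-130599877), a collagen of neurons and motor innervation, was at 1.77, 0.602 and 3.58 CPM per kb in WT and at 0.0158, 0.0115 and 0.0715 (log2 fold change −5.91, SE 1.05, adjusted p = 0.0254, edgeR). For Col26a1 (chr5:136741759-136883209) the counts were 623, 384 and 53 in WT and 2, 0 and 1 in the libraries labelled Atxn7l3-/-, a ratio of 319 per scaled library size with a 95% exact interval of 109 to 1550.0 for counting error (adjusted p = 0.0206, edgeR). Col17a1 and Col28a1 had log2 fold changes of −1.75 and −2.02 and did not pass, and Col13a1, at 0.0386 CPM per kb or less, was not tested.

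**Figure D4:**
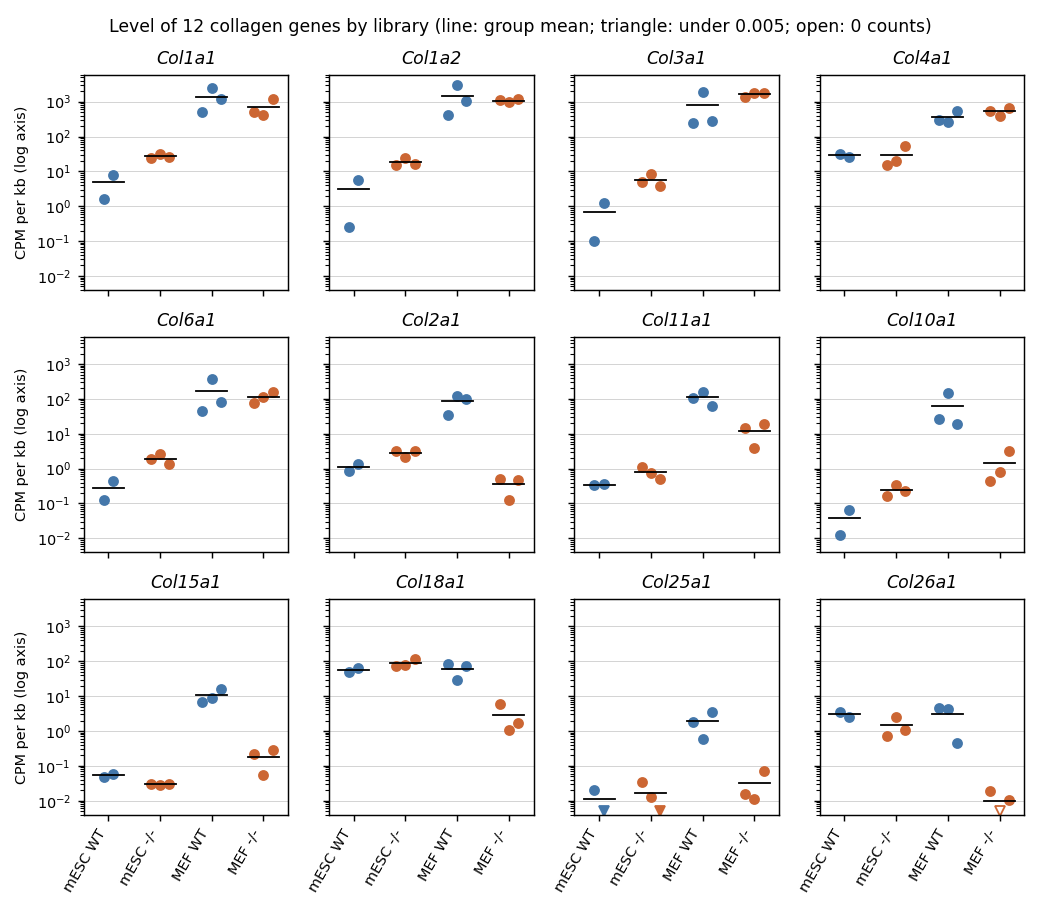
Level of 12 collagen genes in each library, in CPM per kb on a log axis, by cell type and genotype (blue WT, orange Atxn7l3-/-), with the group mean as a line, triangles for values under 0.005 and open symbols for 0 counts. Col1a1, Col1a2, Col4a1 and Col6a1 overlap between the MEF genotypes, and Col3a1 overlaps through WT replicate 2 alone. Col2a1, Col11a1, Col10a1, Col15a1, Col18a1, Col25a1 and Col26a1 do not overlap there. In mESCs, all Atxn7l3-/- libraries are above WT for Col2a1, Col11a1, Col10a1, Col18a1, Col1a1, Col1a2, Col3a1 and Col6a1.

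Marker genes of other cell types moved with some of these collagens in the MEFs (summed levels are over the genes each table lists), and their part in the results was not tested. In bulk RNA, fewer cells of a type and less RNA per cell cannot be told apart. None of 7 chondrocyte markers tested (of 10) was called, and their summed level was 38.8 to 156 CPM in WT and 37.9 to 126 CPM in the MEFs labelled Atxn7l3-/-. Acan and Comp, of the cartilage matrix, were at 0.857, 42.0 and 1.07 and 0.755, 30.0 and 1.46 CPM in WT, that is, mainly in replicate 2, and at 0.239 CPM or less in the other group. WT replicate 2 was also highest in Lum, a matrix protein that binds collagen fibrils (3.90, 677 and 2.10 CPM in WT). Sox6 was the largest term of the sum in the other group, with 39.1, 9.50 and 13.3 CPM in WT and 57.1, 93.8 and 17.4 CPM there. Sox9, the regulator of cartilage genes, was at 16.7, 39.3 and 14.6 CPM in WT and at 6.74, 2.20 and 6.68 CPM (adjusted p = 0.0631, edgeR). Col2a1, Col10a1 and Col11a1 were present in all 3 WT libraries, in 2 of which Acan was near 1 CPM.

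Of the 10 fibroblast markers 1 was called, S100a4, at 42.9, 188 and 132 CPM in WT and at 862, 941 and 717 CPM in the MEFs labelled Atxn7l3-/-. Prrx1 and Pdgfrb were at 27.9, 6.17 and 341 and at 27.3, 2.05 and 278 CPM in those libraries, against 466, 573 and 485 and 210.1, 480.1 and 355 CPM in WT, so that replicates 1 and 2, which had almost no Col6a3, were low in both. Dcn, which binds type I fibrils, was at 38.3, 382 and 25.3 CPM in WT and at 1832, 2444 and 711 CPM. Epithelial and mesothelial markers rose in 4 of 7 tested (summed 15.0 to 38.1 CPM in WT and 2519 to 3730.4 CPM in the other group), led by Upk3b, Msln and Wt1 (log2 fold changes 7.76, 7.67 and 6.70), and Krt18. With the block, 3 fibroblast markers and 1 chondrocyte marker (Sox5) were called higher. Also with the block, 3 Schwann and neural crest markers and 4 smooth muscle markers were called lower. So were 1 endothelial marker (Kdr, adjusted p = 0.0274, edgeR with the block) and 1 pluripotency marker (Sox2, adjusted p = 0.0411). Without it, all 4 Schwann and neural crest markers fell (summed 15.8 to 107 and 1.02 to 1.59 CPM), as did Myh11 of the 4 smooth muscle markers (summed 8533 to 14678 and 1206 to 5337 CPM).

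Of 7 endoderm markers tested, Gata4 and Gata6 rose and Sox7 fell (summed 6207 to 11690.0 and 12003 to 15305 CPM, mostly Sparc, which fibroblasts also express). None of 8 macrophage markers (summed 545 to 1102 and 865 to 6201 CPM), of 5 endothelial markers tested (summed 6.44 to 76.8 and 3.44 to 22.0 CPM) or of 5 sex-linked genes was called without the block. Of 4 pluripotency markers tested, Tfcp2l1 rose. Base composition also moved with the change in MEFs. Across 15944 genes the log2 fold change fell with the GC content of the transcripts (Spearman rho −0.39 across genes, which are not independent), and within the 42 collagen genes rho was −0.18. The 42 had a median GC content of 55.8%, against 50.4% over all genes tested.

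In mESCs, the collagen genes called were higher and not lower, and none of them was among those called in MEFs. Their levels were much lower than in MEFs. Of 34 collagen genes tested, 3 were higher in Atxn7l3-/- than in WT cells (Col1a1, Col5a1 and Col6a1) and none was lower, against 3.08% higher and 3.88% lower among all 17800 genes tested (edgeR, adjusted p at most 0.05). At an unadjusted p under 0.05, 17 were higher and 3 lower, a threshold at which the share of all genes was not counted. DESeq2 called 15 higher and 2 lower, and over all 31518 genes it called 3424 in both directions together. The median log2 fold change was 0.87 over the 34 and 0.04 over all genes tested. By type it was 1.41 for the fibrillar genes, 0.33 for type IV, 0.94 for the FACITs, −0.04 for the multiplexins and 0.63 for the others. All 3 Atxn7l3-/- libraries were above both WT libraries for 19 of the 34 and below both for 5, against 23% and 26.7% of all genes. The 3 calls did not hold in all fits: none was left without WT replicate 1, WT replicate 2 or Atxn7l3-/- replicate 1, and without Atxn7l3-/- replicate 3 there were 6. Over all genes the same fits called 0, 0, 3 and 1514, against 1238 with all libraries.

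The chains of types I and III had very low WT levels, which differed between the WT libraries, and of these chains Col1a1 rose. Col1a1 was at 1.63 and 8.03 CPM per kb in WT mESCs and at 23.8, 32.0 and 25.1 in Atxn7l3-/- mESCs (log2 fold change 2.54, SE 0.59, adjusted p = 0.0469, edgeR). Col1a2 was at 0.260 and 5.80 CPM per kb in WT and at 15.5, 24.7 and 16.8 (log2 fold change 2.71, SE 1.01, adjusted p = 0.127, edgeR). Col3a1 was at 0.0995 and 1.28 CPM per kb in WT and at 5.12, 8.59 and 3.74 (log2 fold change 3.13, SE 0.93, adjusted p = 0.0779, edgeR). In all 3, WT replicate 1 was the lowest library and WT replicate 2 lay between it and the Atxn7l3-/- libraries.

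Types V and VI gave the other calls. Col5a1 was at 2.94 and 4.31 CPM per kb in WT and at 7.91, 9.12 and 10.99 in Atxn7l3-/- mESCs (log2 fold change 1.42, SE 0.25, adjusted p = 0.0287, edgeR). Col5a2 was at 1.48 and 3.79 CPM per kb in WT and at 14.9, 15.2 and 5.66 (log2 fold change 2.23, SE 0.54, adjusted p = 0.0504, edgeR), and Col5a3 was at 1.29 and 2.38 and at 1.54, 1.25 and 3.21 (adjusted p = 0.825). Of the type V chains, Col5a3 alone overlapped between the genotypes. Col6a1 was at 0.126 and 0.437 CPM per kb in WT and at 1.88, 2.59 and 1.32 (log2 fold change 2.83, SE 0.63, adjusted p = 0.0422, edgeR). Col6a2 was at 0.0820 and 0.297 CPM per kb in WT and at 0.961, 1.40 and 0.895 (log2 fold change 2.57, SE 0.64, adjusted p = 0.0544, edgeR). Col6a3 was at 0.3002 and 0.432 CPM per kb in WT and at 0.646, 0.645 and 0.504 (adjusted p = 0.232, edgeR). The low chains Col6a4 and Col6a5 had log2 fold changes of −1.66 and −2.35, neither called, with the groups apart in both, and Col6a6 was not tested.

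The collagens that mESCs expressed most did not pass the test. Col18a1 was at 50.0 and 64.8 CPM per kb in WT and at 73.5, 78.2 and 118 in Atxn7l3-/- mESCs (log2 fold change 0.70, SE 0.27, adjusted p = 0.136, edgeR). Col4a1 was at 32.5 and 25.6 CPM per kb in WT and at 15.5, 20.0 and 52.9 (log2 fold change 0.08, SE 0.50, adjusted p = 0.935, edgeR). Col4a2 was at 18.8 and 10.98 CPM per kb in WT and at 10.48, 15.1 and 28.7 (log2 fold change 0.33, SE 0.44, adjusted p = 0.644, edgeR). Atxn7l3-/- replicate 3 was the highest of the 5 libraries in all 3 of these genes. Col2a1 was at 0.875 and 1.40 CPM per kb in WT and at 3.25, 2.14 and 3.20 (log2 fold change 1.39, SE 0.38, adjusted p = 0.0654, edgeR), above WT in every library. Col11a2, Col6a4 and Col6a5 were the genes with an unadjusted p under 0.05 for a lower level (log2 fold changes −1.42, −1.66 and −2.35). Of the other genes called in MEFs, Col11a1, Col9a3, Col10a1 and Col23a1 had mESC log2 fold changes of 1.22, 1.14, 2.71 and 0.17. Col15a1, Col6a4 and Col26a1 had −0.79, −1.66 and −1.04, and Col24a1 and Col25a1 were not tested.

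In the mESC libraries, contractile genes and the collagen cross-linking enzyme Lox followed the same order as type I collagen. Lox did not pass (adjusted p = 0.11, edgeR), and none of the 4 smooth muscle markers tested was called. With the replicate block, 3 of these markers were called higher. Acta2, an actin of smooth muscle and of fibroblasts in culture, was at 2.81 and 31.3 CPM in WT and at 60.2, 123 and 70.4 CPM in Atxn7l3-/- mESCs, and Lox was at 1.81 and 19.8 and at 38.7, 83.4 and 48.4 CPM. Taken against the mean of the WT MEFs, Col1a1 was at 0.120% and 0.593% in WT mESCs and at 1.76%, 2.36% and 1.85% in Atxn7l3-/- mESCs. Acta2 was at 0.0409% and 0.456% and then at 0.877%, 1.79% and 1.03% by the same measure, and Col1a2, Col3a1, Col6a1 and Tagln were likewise lowest in WT replicate 1 and next lowest in WT replicate 2. The fibroblast markers were divided. Prrx1 was at 0.0188% and 0.114% in WT and at 0.359%, 0.891% and 0.315% in Atxn7l3-/- mESCs, in the manner of type I collagen, and Lum, Prrx1, S100a4 and Twist1 had log2 fold changes of 4.48, 3.02, 2.69 and 1.38, of which S100a4 passed. Thy1 and Pdgfrb, surface markers of fibroblasts, were at 1.23% to 2.48% in all 5 libraries, and with Pdgfra had log2 fold changes of 0.37, 0.13 and 0.04. Col4a1 did not follow type I collagen, with 9.0% and 7.10% in WT and 4.30%, 5.55% and 14.7% in Atxn7l3-/- mESCs. The smooth muscle markers summed to 7.06 to 52.8 CPM in WT mESCs and 99.2 to 200.3 CPM in Atxn7l3-/- mESCs, and the fibroblast markers to 14.0 to 14.5 and 16.3 to 26.3 CPM, with Dcn at 0.364 CPM or less. The cells had been grown on feeders before these were removed, and whether feeder RNA had a part in these values was not tested.

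**Figure D5:**
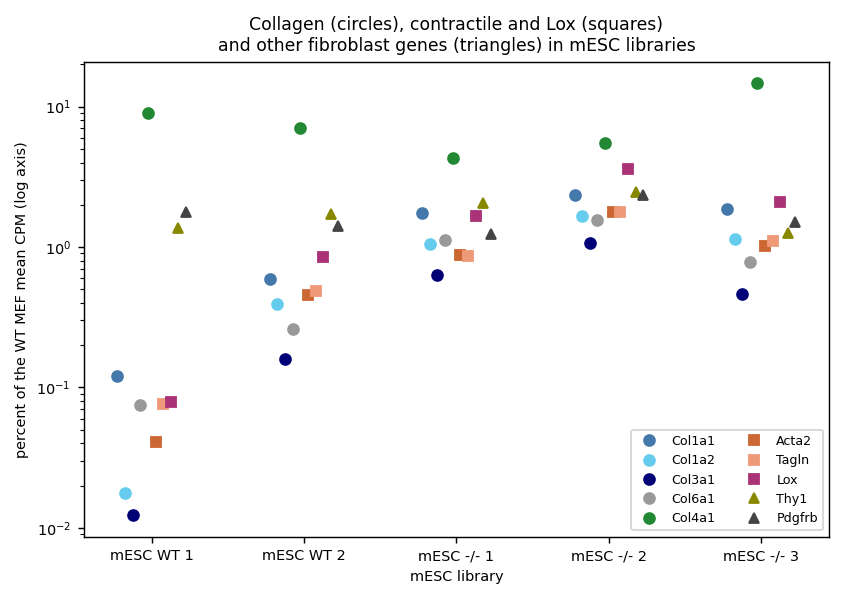
Level of 5 collagen genes (circles), of Acta2, Tagln and Lox (squares) and of Thy1 and Pdgfrb (triangles) in each mESC library, as a percentage of the mean of the 3 WT MEF libraries, on a log axis. Type I, III and VI chains and the genes drawn as squares are lowest in WT replicate 1, intermediate in WT replicate 2 and at 0.464% to 3.60% in the Atxn7l3-/- libraries, while Thy1, Pdgfrb and Col4a1 lie above 1% in all 5, and the fibroblast marker Prrx1, not drawn, is at 0.0188% and 0.114% in WT and 0.315% to 0.891% in Atxn7l3-/- mESCs.

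The remaining marker lists gave few calls in mESCs. Among the 7 fibroblast markers tested S100a4 rose, from 0.165 CPM or less in WT to 0.643, 1.41 and 0.968 CPM. Of 8 epithelial and mesothelial markers Epcam rose (summed 1180.5 to 2069 CPM in WT and 1294 to 1657 CPM in Atxn7l3-/- mESCs). Sox7 of 8 endoderm markers, Tie1 of 4 endothelial markers, Foxd3 of 4 Schwann and neural crest markers and Kdm5d of 5 sex-linked genes fell. None of 8 pluripotency, 5 chondrocyte or 4 macrophage markers tested was called, with summed levels of 3571 to 4230.0, 28.0 to 35.2 and 30.5 to 62.1 CPM in WT and of 3226 to 3589.8, 17.0 to 25.8 and 78.7 to 113 CPM in Atxn7l3-/- mESCs. Ddx3y, on the Y chromosome, was at 80.5 and 175 CPM in WT and at 2.96, 0.793 and 192 CPM, so that Atxn7l3-/- replicates 1 and 2 expressed almost none. The X-linked Col4a5 was at 0.123 and 0.296 CPM per kb in WT and at 0.582, 1.14 and 0.799 (adjusted p = 0.0655, edgeR).

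The difference of libraries labelled Atxn7l3-/- from WT was not the same in both cell types for 12 of 43 collagen genes tested. In each case the lower value was in MEFs, and for none was the higher value in MEFs. The background was 5.27% and 6.14% of 19326 genes (edgeR interaction in 1 fit of all 11 libraries). Libraries labelled Atxn7l3-/- had 60.3% of the mean WT level of Atxn7l3 in MEFs and 0.964% in mESCs. Whether this or feeder RNA in mESCs had a part in the differences was not tested. None of the 43 had a higher MEF effect at an unadjusted p under 0.05 or by DESeq2. The 12 were Col2a1, Col5a1, Col11a1, Col9a3, Col12a1, Col15a1, Col18a1, Col10a1, Col17a1, Col23a1, Col25a1 and Col26a1. Of these, Col25a1 had at most 9 counts in any mESC library, so its difference rests mainly on the MEFs. Col10a1 had 2 and 10 counts in WT mESCs and Col15a1 had 13 and 15, so the size of their differences is uncertain. The largest difference was that of Col2a1 (MEF minus mESC, log2 −9.18, SE 0.95, adjusted p = 0.000898, edgeR), which was called in each alternative fit. Col5a1 combined a MEF effect of −2.10 with an mESC effect of 1.42 (difference −3.48, adjusted p = 0.0224, edgeR). Col12a1 combined −2.41 with 2.39 (difference −4.76, adjusted p = 0.0447), although it passed in neither cell type alone. For Col1a1 the difference was −3.43 (adjusted p = 0.0557) and for Col3a1 −2.03 (adjusted p = 0.326), and neither passed. Without WT mESC replicate 1 or 2 the number of collagen genes called fell to 1 and 3.

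Genes for the synthesis and cross-linking of collagen were followed from a list of 36, of which 35 were found by symbol. In MEFs, against 5.01% higher and 4.39% lower among all genes tested, 1 of the 34 tested rose and none fell. It was Plod2, a lysyl hydroxylase that prepares cross-links, with 405, 282 and 398 CPM in WT and 737, 769 and 674 CPM in the libraries labelled Atxn7l3-/- (log2 fold change 0.99, adjusted p = 0.0498, edgeR, and 0.0625 with the block). With the block 5 fell and none rose, against 8.49% lower and 5.5% higher among all genes. The 5 were P4ha3, P3h2, Tll1, Pcolce2 and Loxl3. In mESCs, 32 were tested, and 4 rose and none fell, against 3.08% higher and 3.88% lower among all genes tested. P4ha1, a prolyl hydroxylase that stabilises the helix, was at 23.7 and 35.5 CPM in WT and at 98.0, 69.3 and 89.1 CPM in Atxn7l3-/- mESCs (log2 fold change 1.59, adjusted p = 0.027, edgeR). Serpinh1, the collagen chaperone HSP47, was at 129.8 and 165 and at 261, 293 and 304 CPM (log2 fold change 1.01). Bmp1, which cleaves the propeptide of fibrillar collagens, and Colgalt1, which adds galactose to hydroxylysine, had log2 fold changes of 1.83 and 1.04. In WT mESCs, Bmp1 was at 6.49 and 4.45 CPM and Colgalt1 at 148 and 192 CPM. Both WT libraries lay below all Atxn7l3-/- mESC libraries in each of these 4 genes.

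Collagen receptors gave 1 call in each cell type, both lower, against 4.39% lower in MEFs and 3.88% in mESCs among all genes tested. Of 9 receptor genes tested in MEFs, Itga2, the alpha chain of a collagen integrin, fell from 8.85, 6.19 and 5.17 to 0.265, 0.665 and 0.778 CPM (log2 fold change −3.57, adjusted p = 0.0214, edgeR). Itga10, an integrin chain that binds type II collagen, was at 6.40, 7.31 and 4.61 CPM in WT and at 30.9, 16.9 and 10.51 CPM and passed, as higher, only with the block (adjusted p = 0.044). Of 7 tested in mESCs, Ddr2, a tyrosine kinase that fibrillar collagen activates, fell from 58.2 and 49.4 to 10.6, 17.6 and 6.40 CPM (log2 fold change −2.18, adjusted p = 0.028, edgeR).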

How the data were processed

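RNA was sequenced from 2 WT and 3 Atxn7l3-/- mESC libraries and from 3 WT and 3 Atxn7l3-/- MEF libraries. Per the labels and the submitters' processing notes, the authors used bcl2fastq 2.17.1.14, cutadapt 1.10, STAR 2.5.3a (mm10), HTSeq 0.6.1p1 and DESeq2 1.16.1. The strand setting of the counting is not given in the sources used here, although the kit marks strand. The deposited tables, 1 for each cell type, hold raw read counts per gene, a normalized signal (counts divided by size factors and by the median transcript length in kilobases) and that length. The signal served only to apply the study's thresholds. The authors' fold changes and p-values in the same tables were not used, nor was 1 column without a name. The deposited length of several collagen genes is short (the longest coding transcript in GENCODE M21 was longer by a median of 2.29 times and by up to 13.9 times), so levels were computed per kb of the longest coding transcript. Levels from the 2 tables were set on 1 scale from the counts.

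Counts were filtered with filterByExpr, scaled by TMM and tested with edgeR 4.0.16 (quasi-likelihood, genotype alone, R 4.3.3), in each cell type apart, and the interaction and the WT contrast in 1 fit of all 11 libraries, over 26398 genes listed in both tables before the filter. A gene was called at a Benjamini-Hochberg adjusted p of at most 0.05 over all genes tested. Intervals and floors (3 counts) cover counting error only. All 44 genes were followed, so no rule selected among them. The fits were tested on simulated data. The collagen genes and the marker lists were chosen with earlier results of these data known.

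Same-numbered MEF libraries deviated together from their group means (correlations of 0.473, 0.161 and 0.240 over 15958 genes, against −0.262 to 0.0516 for other pairs), so the number was taken to pair them, from the data and not from the labels. Deviations from a group mean cancel out within the group, so the other pairs are not an independent contrast. The pairing is therefore an assumption. Alternatives were DESeq2 1.42.0, RLE scaling, no filter, the replicate number as a block, a correction for GC content (a lowess trend for each library), the study's thresholds (2-fold and a median signal over 10), 1 joint fit, and leaving out each library.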

Additional observations from a re-analysis of the deposited data

Results flagged for a closer look

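The collagen genes listed here were singled out by the edgeR interaction test over 19326 genes. In them the difference of libraries labelled Atxn7l3-/- from WT was not the same in MEFs and mESCs. Each value is the log2 fold change in MEFs minus that in mESCs, and each was below 0. Among the fibrillar genes it was −9.18 for Col2a1 (SE 0.95, adjusted p = 0.000898), −4.33 for Col11a1 (SE 0.84, adjusted p = 0.0137) and −3.48 for Col5a1 (SE 0.78, adjusted p = 0.0224). The FACITs Col9a3 and Col12a1 had −4.81 (adjusted p = 0.00827) and −4.76 (adjusted p = 0.0447). Both multiplexins were among them, Col15a1 with −5.04 and Col18a1 with −5.05. Of the network collagens, Col10a1 had −8.10. Col10a1 had 2 and 10 counts in WT mESCs and Col15a1 had 13 and 15, so the size of both differences is uncertain. The transmembrane collagens Col17a1, Col23a1 and Col25a1 had −2.86, −4.30 and −6.41, and Col26a1 had −7.09. Col25a1 had only 7 and 1 counts in WT mESCs and 9, 4 and 1 in Atxn7l3-/- mESCs. It was too low to be tested in mESCs alone, so its mESC side is barely measured. All 12 kept their direction in each alternative fit, but only Col2a1 passed in each. Every value rests on 2 WT mESC libraries, and without replicate 1 of them Col2a1 alone remained. Single libraries far from the rest of their group were not tested for, since groups of 2 and 3 libraries are too small.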

How the results depend on the processing

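The number of collagen genes called was sensitive to the test and to single libraries, and no call changed direction. For collagen genes lower in MEFs labelled Atxn7l3-/-, 11 in the report, 1 fit of all 11 libraries gave 18, DESeq2 19, no filter 15, and leaving out 1 library gave 2 to 15. For those higher, 0 in the report, leaving out 1 library gave 0 to 1. In mESCs, the 3 higher genes became 0 in the joint fit, 15 with DESeq2 and 12 without the filter, and 0 to 6 on leaving out 1 library, while the 0 lower genes became 2 with DESeq2. The 12 genes of the interaction became 21 with DESeq2 and 1 to 20 on leaving out 1 library. For WT MEFs against WT mESCs, 31 in the report, leaving out 1 library gave 24 to 33 higher, always with 2 lower. RLE scaling and the study's thresholds gave the counts of the report. Where 1 WT mESC library was left, it was assumed to vary like the other group. The causes were not tested.

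With the replicate block, the calls were 14 lower in MEFs, 16 in the interaction, and 30 higher and 2 lower between the WT cells. In the WT contrast, libraries of both cell types with the same number shared a block, although the labels do not link them. In the interaction, the blocks were separate for each cell type. With the GC correction they were 9 lower in MEFs and 2 higher in mESCs. In mESCs the same numbers did not pair the libraries (correlations of −0.172 to 0.00777), and the block gave 11 higher, with and without the GC correction (10 lower in MEFs with both). Across all genes, calls in MEFs went from 1501 to 3569 in the joint fit, 3958 with DESeq2, 2232 with the block and 1700 with the block and the GC correction, and in mESCs from 1238 to 446, 3424, 1435 and 1771. The interaction went from 2205 to 4264 with DESeq2. Depth limits the genes near 3 counts in a library, such as Col13a1, Col6a5, Col6a6 and, in mESCs, Col4a3, Col4a4, Col4a6, Col8a2 and Col25a1.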
